A study of Mus musculus with 25 samples.

Results

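Elastic fibres give skin, arteries and lung their recoil and are also laid down in the scar-like matrix around tumours. A fibre has a core of elastin, the product of Eln, which is deposited on a scaffold of microfibrils built from fibrillins, and fibulins help to bring the soluble elastin precursor to that scaffold. Copper-dependent enzymes of the lysyl oxidase family then crosslink elastin, as well as the fibrillar collagens, so that the matrix becomes stiff and insoluble. The 10 genes described here cover these roles: elastin itself (Eln), the fibrillins Fbn1 and Fbn2, the microfibril-associated glycoprotein Mfap5, the fibulins Fbln1, Fbln2 and Fbln5, and the enzymes Lox, Loxl1 and Loxl2. They were chosen by gene name, with earlier results of these data known, as 10 of the 24984 genes of the count table, and all 10 were found in it. Their level was measured in 7 groups of cells from a mouse model of hepatocellular carcinoma.

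The model started from BMEL cells, a clonally derived line of bipotential progenitors from the embryonic liver of a C57B/6_C3H mouse, kept on plates coated with collagen in medium with EGF, IGFII and insulin. BMEL WT cells carried an empty vector, whereas RasLOW and RasHIGH cells carried a vector for the HRasG12V oncogene and a fluorescent protein, and were separated by how brightly they fluoresced, with overlap between the populations. Each of these cultured groups had 3 libraries. The other 4 groups came from 4 athymic nude mice, which lack T cells, after injection of Ras-expressing BMEL cells into the liver: each mouse gave a liver tumour and a peritoneal tumour, and each tumour was dissociated and sorted into fluorescent tumour cells and non-fluorescent stromal cells. The labels do not say which Ras population gave the sequenced tumours, and the ages of the mice were not given in the sources used here. The stromal groups are defined only by the absence of fluorescence, so they hold every host cell type of the dissociated tumour together with any tumour cell that did not fluoresce.

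RNA was sequenced in bulk and deposited as raw counts per gene, and levels are given as CPM, counts relative to the library total after scaling over all 25 libraries. Library totals ran from 20818989 to 51241336 counts, and the level that 3 counts could show lay between 0.0572 and 0.143 CPM, which covers counting error only. The labels were checked against markers. The summed level of 4 epithelial markers (Krt8, Krt18, Epcam and Cdh1) ran from 4491 to 8557 CPM in the cultured and tumour cell libraries and from 565 to 1208 CPM in the stromal ones. Epcam, one of the 4, went against this sum: it was at 0 in all RasLOW libraries, averaged 0.0669 and 0.0488 CPM in liver and peritoneal tumour cells and 5.69 and 4.45 CPM in their stroma, and was higher in stroma at both sites (log2 fold change 6.29, adjusted p = 9.41e-08 in the liver, and 6.34, adjusted p = 4.66e-06 in the peritoneum). Stromal libraries held 5 leukocyte markers at 3460 to 5384 CPM, against 3.71 to 171 CPM elsewhere. The peritoneal tumour cell library of mouse 1 stood apart from the other 3 of its group, with 171 CPM of leukocyte markers against 20.0 to 27.8 CPM and 104 CPM of 6 fibroblast markers against 11.7 to 16.4 CPM.

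Promoter sequence was available for 4 of the members and is shown because Fbn1 and Fbln5 were at or close to 0 in cultured BMEL cells while Fbln2 and Fbln1 were not. Each line gives the 250 bases upstream of a RefSeq start of GRCm38.p6, the more upstream start where a gene has more than 1, read 5′ to 3′ on the strand of the gene. Fbn1 is taken from chr2:125506439-125506688 on the minus strand, Fbln5 from chr12:101819120-101819369 on the minus strand, Fbln2 from chr6:91212514-91212763 on the plus strand and Fbln1 from chr15:85205699-85205948 on the plus strand. Capitals mark the GC box GGGCGG on either strand.
Fbn1: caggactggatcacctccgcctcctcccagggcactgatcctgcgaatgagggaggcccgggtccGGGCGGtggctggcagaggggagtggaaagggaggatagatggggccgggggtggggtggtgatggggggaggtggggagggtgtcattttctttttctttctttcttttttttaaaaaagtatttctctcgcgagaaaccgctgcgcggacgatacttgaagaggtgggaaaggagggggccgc
Fbln5: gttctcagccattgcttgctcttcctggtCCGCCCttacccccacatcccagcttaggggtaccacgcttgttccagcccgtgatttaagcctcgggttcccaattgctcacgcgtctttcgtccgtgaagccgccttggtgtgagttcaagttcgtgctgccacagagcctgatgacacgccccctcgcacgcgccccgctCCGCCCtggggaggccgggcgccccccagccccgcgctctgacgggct
Fbln2: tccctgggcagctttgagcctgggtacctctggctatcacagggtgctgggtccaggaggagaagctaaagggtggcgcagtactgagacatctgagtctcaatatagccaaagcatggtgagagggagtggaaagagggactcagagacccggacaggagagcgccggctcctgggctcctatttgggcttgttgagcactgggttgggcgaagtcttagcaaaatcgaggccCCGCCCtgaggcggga
Fbln1: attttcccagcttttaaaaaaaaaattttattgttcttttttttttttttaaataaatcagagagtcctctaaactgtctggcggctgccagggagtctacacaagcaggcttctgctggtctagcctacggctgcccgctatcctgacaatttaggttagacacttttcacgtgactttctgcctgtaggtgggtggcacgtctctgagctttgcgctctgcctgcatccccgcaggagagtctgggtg
The GC box was found in 32.7% of the 32851 windows of this length in the table. It occurred once in Fbn1, starting 185 bases before the start site, at 221 and 48 bases in Fbln5, once at 16 bases in Fbln2, and in none of the letters of the Fbln1 window, although the second Fbln1 start, which lies downstream of the first, had one at 11 bases. Neither a TATA box (TATAAA, present in 12.4% of windows) nor an AP-1 site (TGANTCA, 6.75%) was found in these windows on either strand, and the motifs do not overlap each other. The G and C content was 59.2% in Fbn1, 65.2% in Fbln5, 58.8% in Fbln2 and 46.4% in Fbln1, against a median of 52.4% over all windows. The windows of Fbn1 and Fbln5 held 13 and 21 CpG dinucleotides and those of Fbln2 and Fbln1 held 8 and 7, against a median of 6, but the other starts listed for Fbln5 and Fbln1 held 6 and 14, so the order depends on which start is taken. These are descriptions of letters and no binding was measured.

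The members fell into 2 kinds by their level in cultured cells. Fbln2, Loxl2 and Fbln1 had counts in every library of the series. Fbln2 was the most abundant member per length in all 7 groups, at 104 ± 14.6 RPKM, which is CPM divided by the exon length in kilobases (SD, n = 3), in BMEL WT cells and 298 ± 51.4 RPKM (n = 4) in peritoneal stroma. The other 7 members, Eln, Fbn1, Fbn2, Mfap5, Fbln5, Lox and Loxl1, were at 0.795 CPM or less in each of the 9 cultured libraries. Eln, Fbln5 and Mfap5 each had 0 counts in 8 of these 9 libraries, and Lox and Fbn2 in 7 of them.

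All 10 members had their highest group mean in peritoneal stroma, and in each of them every peritoneal stromal library lay above every library of the next group. How many of all genes have peritoneal stroma on top in this way was not counted. For Eln, Fbn1, Lox and Loxl1 the order then ran from liver stroma through peritoneal tumour cells to liver tumour cells, with no overlap between these neighbours. Fbn2, Fbln5 and Mfap5 had group means in liver stroma and peritoneal tumour cells that could not be separated, because the libraries overlapped. The order of Fbln2 was different, since peritoneal tumour cells, BMEL WT cells and liver tumour cells at 653, 612 and 602 CPM came next and overlapped their neighbours, followed by RasLOW cells, liver stroma and RasHIGH cells. For Loxl2, liver tumour cells came second at 358 CPM, the next 4 groups down to BMEL WT cells overlapped neighbour by neighbour, and RasHIGH cells came last without overlap. For Fbln1, each group overlapped its neighbour from RasHIGH cells at 26.0 CPM down to BMEL WT cells at 9.28 CPM.

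**Figure D1:**
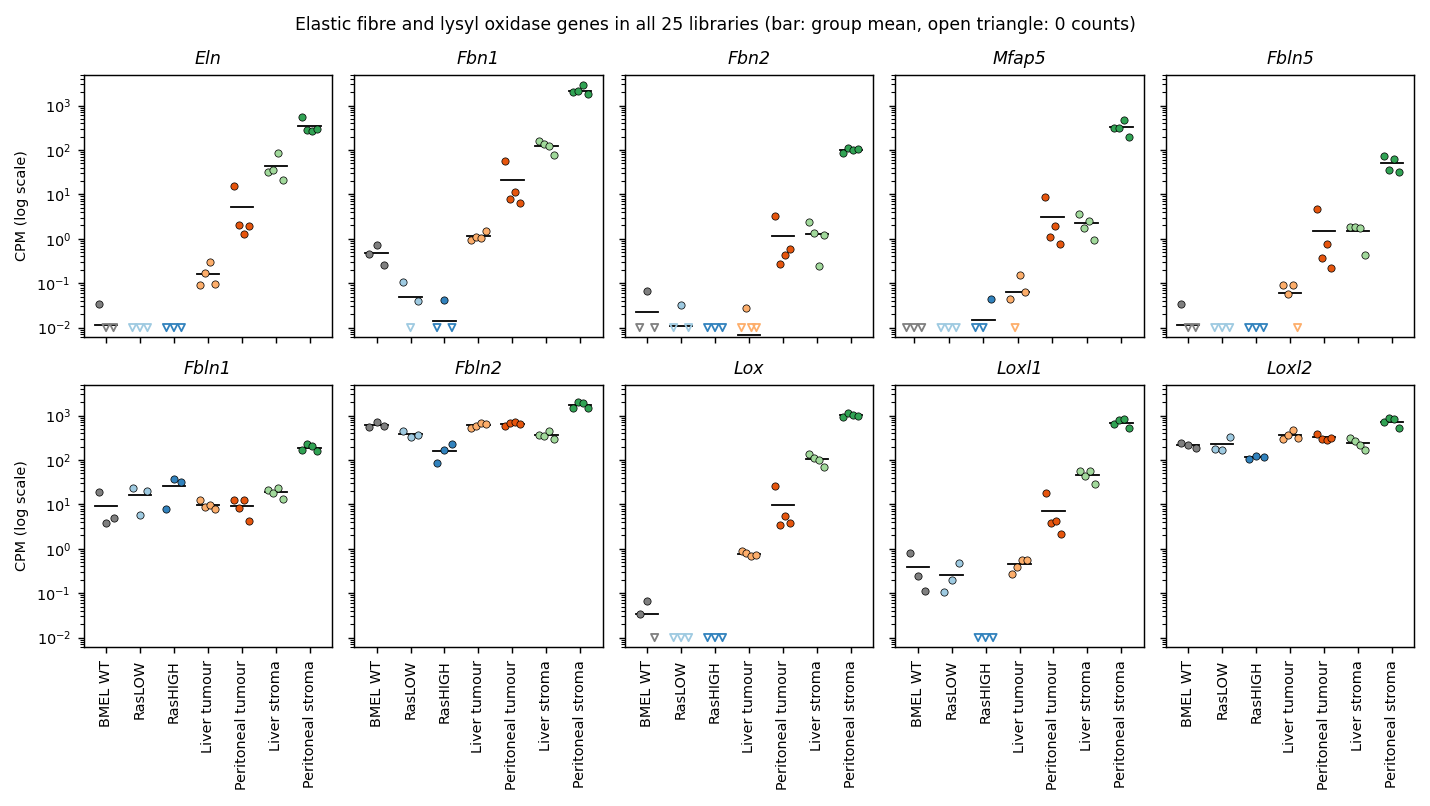
Level of the 10 members (CPM, log scale) in each of the 25 libraries, by group, with 1 point for each library, a bar at the group mean and an open triangle at the foot of the axis for a library with 0 counts. Peritoneal stroma is the highest group in every panel, and Fbln2, Loxl2 and Fbln1 are the only members with counts in all cultured libraries.

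In the cultured cells the question was how members follow the dose of oncogenic Ras. Fbln2, a fibulin that binds fibrillin and the elastin precursor, was at 557, 711 and 569 CPM in BMEL WT cells, at 441, 330 and 367 CPM in RasLOW cells and at 85.9, 165 and 230 CPM in RasHIGH cells. The 3 groups did not overlap, and the levels stepped down from BMEL WT to RasLOW to RasHIGH. Against BMEL WT, Fbln2 was lower in RasLOW (log2 fold change -0.72 with a standard error, SE, of 0.16, adjusted p = 0.0456) and in RasHIGH cells (-1.96, SE 0.35, adjusted p = 0.00817) in the quasi-likelihood test of edgeR.

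Loxl2, a lysyl oxidase-like enzyme that carries scavenger receptor domains, was at 236, 222 and 188 CPM in BMEL WT cells, at 176, 172 and 332 CPM in RasLOW cells and at 106, 126 and 115 CPM in RasHIGH cells. RasHIGH libraries were the lowest and close to each other, while RasLOW libraries lay on both sides of the BMEL WT ones. Loxl2 was lower in RasHIGH than in BMEL WT cells (log2 fold change -0.93, SE 0.14, adjusted p = 0.00464), and its difference in RasLOW was 0.04 (SE 0.27, adjusted p = 0.959). Fbln1, a fibulin of elastic fibres and basement membranes, varied within each group, with 19.1, 3.83 and 4.88 CPM in BMEL WT cells, 23.8, 5.63 and 19.7 CPM in RasLOW cells and 8.06, 37.8 and 32.2 CPM in RasHIGH cells. The groups overlapped, and the log2 difference of 1.45 between RasHIGH and BMEL WT (SE 0.76, adjusted p = 0.225) did not pass.

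Thus 1 of the 3 members tested was lower in RasLOW cells and 2 of 3 were lower in RasHIGH cells, and 0 were higher. Over all genes tested, 1.92% were called higher and 4.05% lower in RasLOW, and 10.9% were called higher and 11.7% lower in RasHIGH cells. Between RasHIGH and RasLOW, where 0.0585% of genes were called higher and 0.0167% lower, 0 members passed by edgeR, although 2 of 3, Fbln2 and Loxl2, had an unadjusted p under 0.05. Their log2 differences were -1.23 (SE 0.35, adjusted p = 0.264) for Fbln2 and -0.97 (SE 0.28, adjusted p = 0.273) for Loxl2, and 1 member, Fbln2, passed with DESeq2 (adjusted p = 0.0370). The RasLOW call of Fbln2 rested on a narrow margin, since it was lost when any library other than RasLOW replicate 2 was left out (adjusted p up to 0.199) and with RLE scaling (adjusted p = 0.0505). Lane 3 held BMEL WT replicates 1 and 2, and lane 4 the remaining cultured libraries. Within lane 4, with 1 BMEL WT library assumed to vary like the Ras libraries, the RasHIGH differences were -1.86 for Fbln2 (adjusted p = 0.160) and -0.74 for Loxl2 (adjusted p = 0.210), so that neither passed.

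The remaining 7 members were too low in culture to pass the filter on low counts. Fbn1 had 13, 21 and 7 counts in BMEL WT libraries, 3, 0 and 1 in RasLOW and 0, 1 and 0 in RasHIGH. Loxl1, an enzyme of elastin crosslinking, had 23, 7 and 3 counts in BMEL WT, 3, 6 and 12 in RasLOW and 0 in all RasHIGH libraries. With the filter dropped, both were lower in RasHIGH than in BMEL WT cells, with log2 differences of -4.70 for Fbn1 (adjusted p = 0.0138) and -6.36 for Loxl1 (adjusted p = 0.0365, against a group at 0, where the value depends on the prior count). No statement can be made at this depth for Eln, Fbn2, Mfap5, Fbln5 and Lox, which had at most 2 counts in any cultured library.

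**Figure D2:**
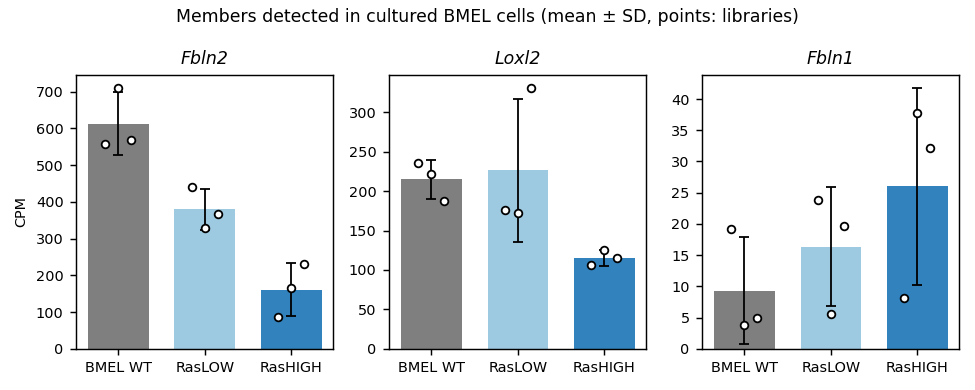
CPM of Fbln2, Loxl2 and Fbln1 in BMEL WT, RasLOW and RasHIGH cells, with bars at the mean of 3 libraries, error bars of 1 SD and 1 point for each library. Fbln2 steps down from 612 to 379 to 160 CPM, Loxl2 is low only in RasHIGH at 115 CPM, and the Fbln1 groups overlap.

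Other genes of the fibre behaved in part like Fbln2. Of 17 further elastic fibre genes, 10 were tested in culture. Efemp1, which encodes fibulin 3, was lower in RasLOW (log2 fold change -1.29, adjusted p = 0.0331) and in RasHIGH cells (-2.37, adjusted p = 0.00139), and Efemp2, which encodes fibulin 4, was lower in RasHIGH (-0.66, adjusted p = 0.00701). The other 8 did not pass in RasHIGH, and the median of the 10 was -0.29, against -0.02 over all genes tested. Between RasHIGH and RasLOW, 0 of the 10 passed with edgeR. Of 7 fibrillar collagens, the substrates of Lox, 3 were tested and all 3 were lower in RasHIGH, among them Col5a1 (-6.86) and Col11a1 (-5.47), while Col5a1 alone was lower in RasLOW cells (-1.54, adjusted p = 0.0490). Col5a1 and Col11a1 had 5 and 4 counts over the RasHIGH libraries. They passed the filter there only through BMEL WT, so their direction in RasHIGH was fixed before the test. Mmp2, a gelatinase that also cleaves elastin, was lower in both Ras populations, with log2 fold changes of -2.43 and -3.86, and Ctsl, a lysosomal protease gene, was higher in RasHIGH cells (1.13).

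In the tumours, the stroma of the 2 sites was compared first, to ask whether the site of growth goes with the matrix genes of host cells. All 10 members tested were lower in liver than in peritoneal stroma, where 18.5% of the 14755 genes tested were called lower and 14.9% higher. Eln was at 32.0, 35.7, 85.3 and 21.3 CPM in the liver stroma of mice 1 to 4 and at 555, 278, 268 and 290 CPM in their peritoneal stroma. The sites did not overlap, mouse 1 was far above the others in the peritoneum, and the log2 fold change was -3.04 (SE 0.43, adjusted p = 0.000607). These are bulk libraries, so fewer cells of a type and less RNA per cell cannot be told apart.

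Of the microfibril genes, Mfap5 and Fbn2 had the largest differences of all 10 members. Fbn1, the main fibrillin of adult tissues, was at 159, 138, 125 and 77.9 CPM in liver stroma and at 1971, 2110, 2854 and 1777 CPM in peritoneal stroma, so that it was lower in the liver by 4.16 on the log2 scale (SE 0.25, adjusted p = 4.44e-06). Fbn2, a fibrillin best known from developing tissues, was at 2.36, 1.35, 0.242 and 1.20 CPM in the liver and at 86.5, 112, 98.4 and 105 CPM in the peritoneum. With 7 counts in the liver stroma of mouse 3, Fbn2 needed peritoneal libraries to pass the filter on low counts, which favoured this direction. Mfap5 was at 3.67, 1.74, 2.49 and 0.962 CPM against 317, 307, 470 and 194 CPM. Thus Fbn2 and Mfap5 were close to absent from liver stroma and well expressed in peritoneal stroma, with log2 fold changes of -6.28 (SE 0.41) and -7.19 (SE 0.43) and adjusted p-values of 6.31e-06 and 4.44e-06.

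Among the fibulins, Fbln5, which brings the elastin precursor to microfibrils, behaved in the same way. It was at 1.85, 1.88, 1.73 and 0.441 CPM in liver stroma and at 74.3, 35.2, 62.1 and 32.2 CPM in peritoneal stroma (log2 fold change -5.12, SE 0.42, adjusted p = 2.11e-05). Fbln1 was at 21.5, 18.4, 23.4 and 13.0 CPM against 168, 228, 210 and 156 CPM. Its log2 fold change was -3.36 (SE 0.20, adjusted p = 4.57e-06). Fbln2 was abundant in both, at 364, 355, 460 and 291 CPM in the liver and 1500, 2062, 1962 and 1487 CPM in the peritoneum (log2 fold change -2.30, SE 0.17, adjusted p = 1.18e-05).

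Of the crosslinking enzymes, Lox was at 134, 111, 102 and 68.8 CPM in liver stroma and at 941, 1169, 1030 and 953 CPM in peritoneal stroma. Its log2 fold change was -3.34 (SE 0.20, adjusted p = 4.44e-06). Loxl1 was at 56.9, 43.5, 55.7 and 29.2 CPM against 638, 784, 834 and 525 CPM, with a log2 fold change of -3.95 (SE 0.24, adjusted p = 4.98e-06). The smallest difference of the 10 was that of Loxl2, at 312, 269, 218 and 170 CPM against 699, 884, 820 and 534 CPM, with a log2 fold change of -1.64 (SE 0.21, adjusted p = 0.000347). In all 3 enzymes the 4 liver libraries lay below the 4 peritoneal ones, and how many of all genes separate in this way was not counted. Without any one library, all 10 members were still called.

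Genes of the same fibre and its substrates moved the same way. Of 16 other elastic fibre genes tested, 14 were lower in liver stroma, with the largest differences in Mfap4, a microfibril-associated protein (log2 fold change -6.28), and Fbln7, a fibulin (-6.10). Their lowest liver stromal libraries were at 0.0691 and 0.241 CPM. Both genes thus needed peritoneal libraries to pass the filter on low counts, which favoured this direction. The 2 that were higher, Emilin2, an elastin microfibril interface protein (0.48), and the copper transporter gene Atp7a (0.45), had small differences. The median of the 16 was -2.36, against 0.02 over all genes tested. All 7 fibrillar collagens were lower in liver stroma, from -4.15 in Col3a1 to -1.71 in Col11a1. Of 7 genes for elastin-degrading enzymes, 3 were lower, led by Ctsk (-4.11) and Mmp2 (-4.03), and 2 were higher, Mmp9 (1.04) and Mmp12 (0.68), the latter known as macrophage elastase.

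Fibroblast markers moved with these members. Their summed level (Pdgfra, Pdgfrb, Dcn, Lum, Dpt and Thy1) was 348 ± 84.0 CPM in liver and 3416 ± 761 CPM in peritoneal stroma (SD, n = 4), with ranges of 226 to 414 and 2292 to 3911 CPM and 0 of the 6 at 0, a ratio of 9.81. Fibrillar collagens were 10.0-fold higher in peritoneal stroma and 5 smooth muscle markers 3.27-fold higher, whereas 5 leukocyte markers stood at 0.846 and 4 endothelial markers at 0.687 of their level in liver stroma. Gene by gene, 2 of the 5 smooth muscle markers passed, both lower in the liver. Of the 5 leukocyte markers 2 passed, and of the 4 endothelial markers 1, all higher in the liver. Cdh5, on the endothelial list, did not pass between stroma and tumour cells in the liver (log2 fold change 0.50) or the peritoneum (-0.11). Mesothelial markers were at 1.06 and hepatocyte markers at 0.0194 of the liver level, the latter with 78.1 CPM in liver and 1.51 CPM in peritoneal stroma. The mesothelial sum does not measure mesothelial content, since it was larger in liver and peritoneal tumour cells (250 and 421 CPM) than in their stroma (118 and 125 CPM). Msln was lower in stroma than in tumour cells (log2 fold change -2.13 and -3.37), while the other 4 markers were higher. Wt1 alone of the 5 was called between the stromas, lower in the liver (-1.28, adjusted p = 0.00245). Because fibroblast markers differed between the sites, libraries were also scaled to their sum. This alternative was added after the data were seen and moved the median log2 difference of all genes from 0.02 to 3.36. On that scale Fbn1, Fbn2, Mfap5 and Fbln5 were still lower in the liver, with log2 differences of -0.87, -3.05, -3.92 and -1.87. Eln (0.26), Fbln1 (-0.05), Lox (-0.06) and Loxl1 (-0.64) no longer passed. Fbln2 (1.04, adjusted p = 0.00431) and Loxl2 (1.69, adjusted p = 5.32e-06) changed direction. All 10 members stayed below the shifted median of all genes, but the scaling moved members and median by a similar amount and could hardly change this order. The fibroblast markers themselves did not move evenly, with log2 differences on the scale used elsewhere from -1.73 in Pdgfrb to -7.93 in Dpt, and their part in the members' differences was not tested beyond this scaling.

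**Figure D3:**
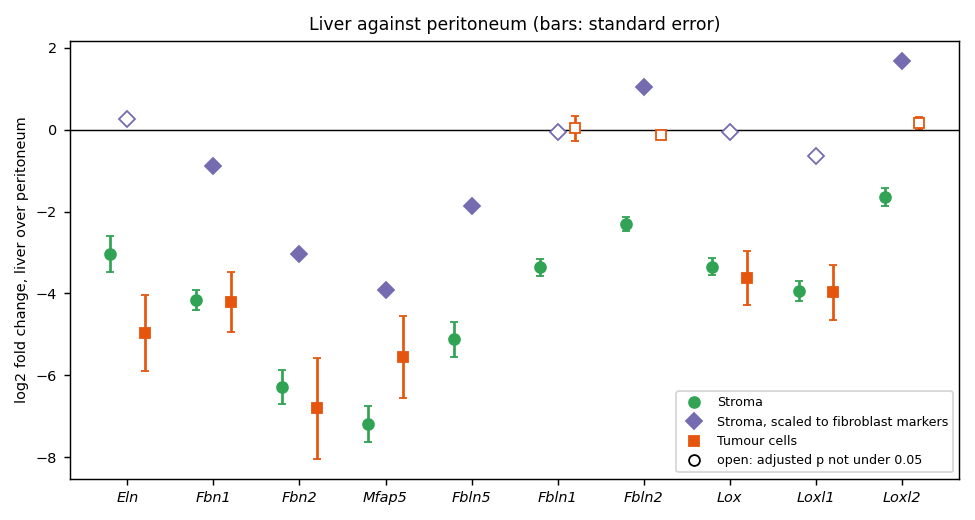
Log2 fold change of each member, liver over peritoneum, in stroma (circles), in stroma with libraries scaled to 6 fibroblast markers (diamonds, no error drawn) and in tumour cells (squares), with bars of 1 standard error and open symbols where the adjusted p was not under 0.05. All circles lie below 0, from -1.64 for Loxl2 to -7.19 for Mfap5, the diamonds of Fbln2 and Loxl2 lie above 0, and Fbln5 has no square because it was not tested in tumour cells.

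Stroma was next compared with tumour cells at each site. In the liver, 9 members were tested, 7 were higher in stroma and 2 were lower, against 39.4% of genes called higher and 38.4% called lower. Of the 7, Eln, Mfap5 and Fbln5 had 23, 9 and 9 counts over the liver tumour cell libraries. They passed the filter on low counts only through stroma, so their direction was fixed before the test. Eln (log2 fold change 8.05, SE 0.56), Lox (7.03, SE 0.23), Fbn1 (6.79, SE 0.25) and Loxl1 (6.70, SE 0.29) had the largest differences, at adjusted p-values from 1.20e-10 to 8.16e-08. Mfap5 (5.07), Fbln5 (4.51) and Fbln1 (0.98) were higher as well, although the Fbln1 call was lost with all 25 libraries in one fit (adjusted p = 0.0752). Fbln2 was at 532, 568, 673 and 636 CPM in liver tumour cells, above the 291 to 460 CPM of liver stroma, and was lower in stroma (log2 fold change -0.72, SE 0.13, adjusted p = 0.000352). Loxl2 was at 290, 356, 468 and 320 CPM in liver tumour cells and overlapped stroma, and its log2 fold change of -0.57 (SE 0.19, adjusted p = 0.0159) did not pass without 1 of the 8 libraries (adjusted p = 0.0594 without the liver tumour library of mouse 3). Fbn2 had 1 count over the 4 liver tumour cell libraries and was not tested.

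In the peritoneum, all 10 members were higher in stroma than in tumour cells, where 37.1% of genes were called higher and 39.5% lower. The 7 members that were nearly silent in culture had log2 fold changes between 4.99 for Fbln5 and 6.64 for Lox. Of these, Fbln5 had 150, 14, 41 and 6 counts in the peritoneal tumour cells of mice 1 to 4. It needed stromal libraries to pass the filter on low counts, which favoured this direction. Fbn2, with 106, 10, 23 and 16 counts there, was close to that limit. Fbln1 was higher by 4.25 (SE 0.35), Fbln2 by 1.32 (SE 0.14) and Loxl2 by 1.09 (SE 0.17), with adjusted p-values of 1.13e-05, 3.81e-05 and 0.000411. Of 7 fibrillar collagens, all 7 were higher in stroma at both sites, as were all 6 fibroblast markers and 6 of 7 genes for elastin-degrading enzymes. Among the other elastic fibre genes, 5 of 14 were higher and 6 lower in liver stroma, led by Emilin2 (8.43) and Ltbp1 (-2.79), and 13 of 16 were higher and 2 lower in peritoneal stroma, led by Emilin2 (7.02) and Ltbp3 (-1.70). Some genes of these lists were near 0 in tumour cells and passed the filter only through stroma, so their direction was fixed. Fbln2 and Loxl2 lay on the tumour cell side in the liver and on the stromal side in the peritoneum.

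This difference between the sites was tested as an interaction of site and compartment over the 16 libraries, in which 7.5% of genes were called in the positive and 6.79% in the negative direction. Of the 10 members tested, 3 passed, namely Fbln1 (-3.31, SE 0.39, adjusted p = 7.37e-05), Fbln2 (-2.10, SE 0.20, adjusted p = 1.47e-05) and Loxl2 (-1.72, SE 0.28, adjusted p = 0.000865). A negative value means that the liver was lower, relative to the peritoneum, by more in stroma than in tumour cells. The other 7 members did not pass, with values from -1.57 for Mfap5 to 1.99 for Eln and standard errors from 0.70 to 1.97, so their precision was low. Of 16 other elastic fibre genes, 8 passed and all 8 were negative, with Efemp1 (-2.76) and Loxl3 (-2.28) the furthest. Without the peritoneal tumour library of mouse 1, Fbn1 turned to -1.24 and passed (adjusted p = 0.0358). Epithelial markers were at 915 to 1208 CPM in liver and 565 to 895 CPM in peritoneal stroma, and what tumour cells in the stromal gate added to Fbln2, Loxl2 and Fbln1 there was not tested.

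Between the tumour cells of the sites, 6 of 9 members tested were lower in the liver, where 1.87% of 13074 genes were called lower and 1.33% higher. Of the 6, Eln, Fbn2 and Mfap5 had 23, 1 and 9 counts over the liver libraries. They passed the filter on low counts only through their peritoneal libraries, so their direction was fixed before the test. Eln was at 0.0900, 0.167, 0.300 and 0.0955 CPM in liver tumour cells and at 15.2, 2.0, 1.26 and 1.91 CPM in peritoneal tumour cells. Lox was at 0.900, 0.809, 0.689 and 0.732 CPM against 25.6, 3.48, 5.43 and 3.79 CPM. Fbn1 was at 0.923, 1.12, 1.02 and 1.46 CPM against 57.4, 7.91, 11.3 and 6.25 CPM. In each of them the sites did not overlap, and mouse 1 was the highest of the peritoneal libraries by several times.

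Loxl1 was at 0.270, 0.390, 0.569 and 0.573 CPM in liver tumour cells and at 17.7, 3.78, 4.27 and 2.17 CPM in peritoneal tumour cells. Mfap5 was at 0.0450, 0, 0.150 and 0.0636 CPM against 8.55, 1.11, 1.93 and 0.772 CPM. Both followed the same pattern, with no overlap and with mouse 1 on top. How many of all genes show no overlap between the tumour cells of the sites was not counted.

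The log2 fold changes were -4.97 for Eln (SE 0.93, adjusted p = 0.0247), -3.61 for Lox (SE 0.66, adjusted p = 0.0243), -4.21 for Fbn1 (SE 0.73, adjusted p = 0.0202), -3.97 for Loxl1 (SE 0.67, adjusted p = 0.0196) and -5.56 for Mfap5 (SE 1.0, adjusted p = 0.0225). Fbn2 had a log2 fold change of -6.81 (SE 1.24, adjusted p = 0.0236). It had 155 counts in peritoneal tumour cells, with 106, 10, 23 and 16 in mice 1 to 4, and 1 count in liver tumour cells. The ratio was 151 with a 95% counting interval from 26.7 to 6005, which pools the mice and leaves out the spread between them. Fbln5 had 150, 14, 41 and 6 counts in peritoneal and 4, 2, 3 and 0 counts in liver tumour cells and was below the filter, and with the filter dropped its log2 fold change was -4.55 (adjusted p = 0.0346). With the mouse as a block, 3 of the 6 calls held, those of Lox (adjusted p = 0.0468), Mfap5 (0.0458) and Fbn2 (0.0435), while Eln (0.0761), Fbn1 (0.0606) and Loxl1 (0.0692) did not pass. Without the peritoneal library of mouse 1, 6 members were called. None of the 9 was called without the liver library of mouse 2 or that of mouse 4, and 3 were called without that of mouse 3, although the log2 values of the 6 stayed between -8.41 and -2.42 in the fits without any one library in which each was tested.

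By contrast, Fbln2 was at 573, 665, 724 and 650 CPM in peritoneal and 532 to 673 CPM in liver tumour cells, and the groups overlapped. Its log2 difference was -0.12 (SE 0.09, adjusted p = 0.522). Loxl2, at 393, 304, 281 and 305 CPM in the peritoneum, had a difference of 0.16 (SE 0.15, adjusted p = 0.617), and Fbln1, at 12.6, 8.27, 12.3 and 4.15 CPM against 12.2, 8.64, 9.68 and 7.83 CPM in the liver, one of 0.03 (SE 0.30, adjusted p = 0.961). No difference between the sites was seen for these 3 genes beyond the spread of the mice.

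The level of a member in tumour cells was also expressed as a percent of its level in the stroma of the same mouse and site. In the peritoneum the 7 members that were nearly silent in culture stood at 0.240% to 1.26% in mice 2, 3 and 4 and at 2.69% to 6.28% in mouse 1, which was the highest for all 7. Leukocyte markers were at 0.459% to 0.665% in mice 2, 3 and 4 and at 3.58% in mouse 1, and fibroblast markers at 0.332% to 0.510% and at 2.71%. In the liver the 7 members ranged from 0% to 6.61%. Eln was at 0.281% to 0.469%, Lox at 0.672% to 1.06%, Fbn1 at 0.581% to 1.88% and Loxl1 at 0.475% to 1.96%, whereas Fbn2 reached 2.06%, Fbln5 5.20% (median 3.91%) and Mfap5 6.61% (median 3.62%), each with 0% as its lowest value, beside 0.533% to 0.718% for leukocyte markers and 1.04% to 2.80% for fibroblast markers. Summed fibroblast markers were at 104, 13.0, 16.4 and 11.7 CPM in the peritoneal tumour cells of mice 1 to 4 and at 4.30, 5.49, 6.02 and 6.33 CPM in their liver tumour cells, so that mouse 1 carried most of the difference between the group means. How much of these members' counts in the tumour cell libraries came from stromal cells was not tested. Fbln2 stood apart from them, at 32.3% to 43.7% of stroma in the peritoneum and 146% to 219% in the liver, and so did Loxl2, at 34.3% to 57.2% and 92.8% to 215%.

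**Figure D4:**
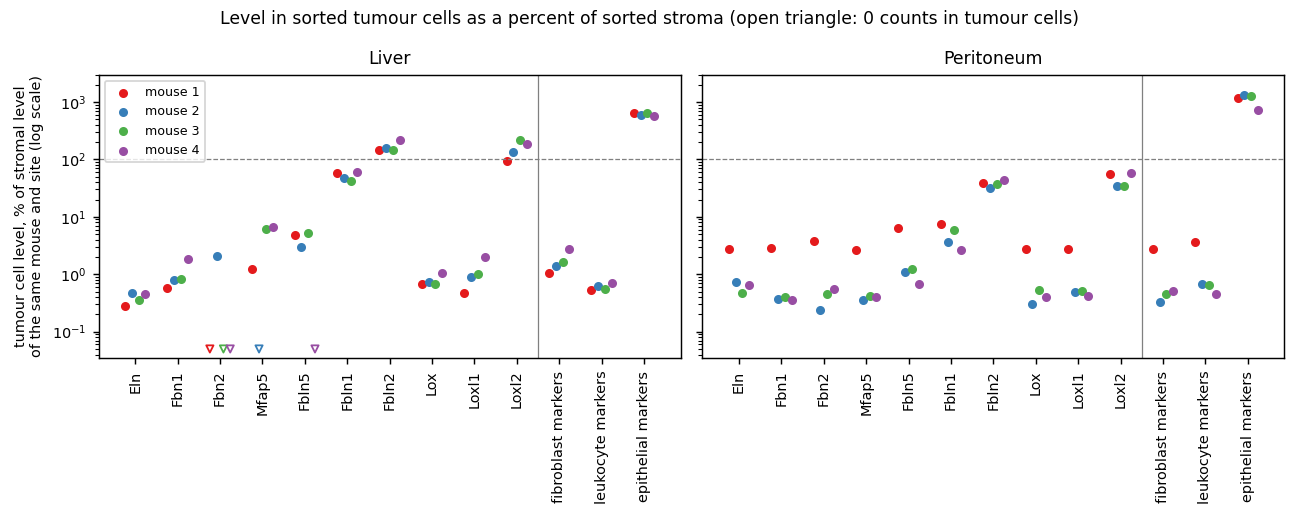
Level in tumour cells as a percent of the stromal level of the same mouse (log scale) for each member and for 3 sets of markers, in the liver and in the peritoneum, with 1 point for each mouse and open triangles for 0 counts in tumour cells. In the peritoneum, mouse 1 lies above the other mice for the 7 members that were nearly silent in culture, as it does for fibroblast and leukocyte markers, whereas Fbln2 and Loxl2 lie at 32.3% or more.

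Other genes followed the members in tumour cells only in part. Of 7 fibrillar collagens, 6 were lower in liver than in peritoneal tumour cells, led by Col3a1 (log2 fold change -4.24) and Col5a2 (-3.31), and mouse 1 again had the highest summed level of the 7, 1550 CPM against 246 to 391 CPM. Of 12 other elastic fibre genes tested, 2 were lower in the liver, Ltbp2 (-1.17), encoding a microfibril-bound relative of the latent TGF-beta binding proteins, and Bmp1 (-0.77), whose protease activates the Lox precursor. Of 6 genes for elastin-degrading enzymes, 1 was lower, Mmp2 (-3.07). The median of the 12 was -0.21, against -0.01 over all genes tested.

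The make-up of the lysyl oxidase family, which also holds Loxl3 and Loxl4, was compared per length as shares of its 5 members' RPKM. In BMEL WT cells Loxl2 made up 72.2% ± 7.17 (SD, n = 3) and Loxl4 24.1% ± 6.07, and Lox and Loxl1 only 0.0121% and 0.203%. In liver tumour cells Loxl2 made up 84.5% ± 3.68 (n = 4), Loxl3 11.8% ± 2.90 and Loxl4 3.26% ± 0.825, and in peritoneal tumour cells Loxl2 made up 76.6% ± 1.32. Lox and Loxl1 were found mainly in stroma. Lox made up 25.01% ± 0.666 and Loxl1 15.8% ± 2.68 of the family in liver stroma, and 36.4% ± 3.34 and 34.4% ± 2.36 in peritoneal stroma, where Loxl2 was down to 22.6% ± 1.67 from 51.4% ± 2.33. The 4 libraries of the sites did not overlap in any of these 3 shares. The family's summed level was 88.1 RPKM in liver and 603 RPKM in peritoneal stroma.

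**Figure D5:**
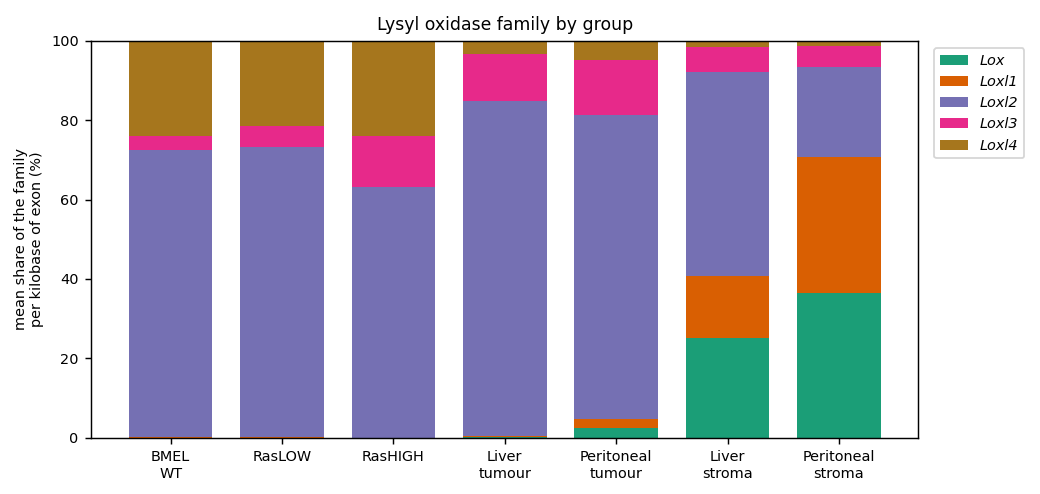
Mean share of each of the 5 lysyl oxidase genes in the family's summed level per kilobase of exon (%), by group. Loxl2 takes most of the bar in cultured and tumour cells, and Lox and Loxl1 take 36.4% and 34.4% of it in peritoneal stroma.

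Among 6 fibulin genes, Fbln1, Fbln2, Fbln5, Fbln7, Efemp1 and Efemp2, without Hmcn1, Fbln2 held 33.8% ± 1.38 of the RPKM in BMEL WT cells, behind Efemp1 at 49.3% ± 0.457. In liver tumour cells it held 60.4% ± 1.63 and Efemp1 8.46% ± 0.907, and in peritoneal stroma 55.7% ± 4.55 and 12.2% ± 6.12. Fbln5 held 1.65% ± 0.697 in peritoneal stroma, its highest group mean. Between the fibrillins, Fbn1 made up 98.8% ± 0.709 of the RPKM in liver stroma and 94.8% ± 1.13 in peritoneal stroma, and Fbn2 the remainder. The lengths were those of the GENCODE M1 exons on mm9, and the annotation used for counting was not given in the sources used here.

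The profile of each member over the 7 group means was set against 14468 other genes by the root mean square difference of centred log2(CPM + 1), a description over 7 groups that share libraries with the tests above. The closest to Eln was Lama4 (0.16), to Fbn1 Fstl1 (0.19), to Lox Aebp1 (0.09) and to Loxl1 Fndc1 (0.17). Fbn2 lay closest to Mfap4 (0.11), Mfap5 to Dpt (0.17) and Fbln5 to Cpxm2 (0.12). Dcn and Thy1, both on the list of fibroblast markers, were second closest to Lox and Eln. Fbln2 and Loxl2 had no profile as near, with Ror1 (0.26) and Lgr5 (0.26) as the closest, and the closest to Fbln1 was Slc10a6 (0.48).

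On mm9, Eln lies on chromosome 5 from 135179651 to 135223111, Fbn1 on chromosome 2 from 125126330 to 125333729, Loxl1 on chromosome 9 from 58135530 to 58161019 and Fbln5 on chromosome 12 from 102984775 to 103057265, all on the minus strand. Fbln2 (91162449 to 91222534) and Mfap5 (122455863 to 122479308) lie on chromosome 6, Loxl2 on chromosome 14 from 70008978 to 70095640 and Fbln1 on chromosome 15 from 85036379 to 85116965, all on the plus strand. The counts are per gene and do not separate exons or isoforms.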

How the data were processed

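RNA of 25 libraries was measured, 3 each of BMEL WT, RasLOW and RasHIGH cells and 4 each of liver and peritoneal tumour cells and stroma, grouped by their labels. The authors deposited raw read counts per gene (symbol and Entrez identifier), not normalized. The methods name TopHat2 and mm9, while the submitters' processing notes name FastQC, Bowtie 0.12.2, mm8 and mm10. The counting program, its annotation and its strand setting were not given in the sources used here, so reads of overlapping or antisense genes may be shared.

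Counts were fitted over all genes in R 4.3.3 with edgeR 4.0.16: filterByExpr (minimum count 10), TMM, the quasi-likelihood F-test on the libraries compared, and Benjamini-Hochberg adjustment over all genes tested. A gene was called at an adjusted p under 0.05. A gene near 0 in a group can pass the filter only through the other group, and its direction is then fixed. The study's thresholds on fold change and p were an alternative, applied here to unadjusted p, although the study may have used adjusted values. Every adjusted p is from this test unless another is named. The standard error (SE) is the log2 fold change over the root of the F statistic. The fits were first tested on simulated data. The alternatives were RLE, DESeq2 1.42.0, no filter, all libraries in one fit, a replicate block, lanes and each library left out.

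Tumour libraries with the same number come from the same mouse, by their labels. Deviations from the group means of same-mouse libraries had mean correlations across genes of -0.04 and 0.17 between the sites of tumour cells and stroma, and 0.22 and 0.19 between stroma and tumour cells in the liver and the peritoneum. The labels do not say that the cultured libraries came from separate cultures, so their p-values measure only the spread between these libraries.

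The text names all 10 members, of each other list at most 2 called genes each way with the largest change, and the genes closest to each member in profile. The 5 lysyl oxidase genes and 6 fibulin genes are named in the shares, and Col11a1 and Pdgfrb are named as ends of a range, after their values were seen. Marker lists are given as summed levels. Epcam, Msln, Wt1 and Cdh5 are named beside their sums, after their values were seen, because they differed from the rest of their lists. The members and all lists were chosen with earlier results of these data known.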

Additional observations from a re-analysis of the deposited data

Results flagged for a closer look

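For each group of 4 libraries (10 members in 4 tumour groups), the gap of a library to its nearest neighbour was taken as a part of the group's range. Independent groups of normal values pass Dixon's 95% limit for 4 values in about 1 in 20 cases. The groups here share libraries, and the share over all genes was not counted, so no excess over that rate is shown. Of the 40 groups, 10 had a library past this limit. In 7 of them this was the peritoneal tumour library of mouse 1, with Eln at 15.2 CPM (ratio 0.947), Fbn1 at 57.4 CPM (0.901), Fbn2 at 3.29 CPM (0.895), Mfap5 at 8.55 CPM (0.852), Lox at 25.6 CPM (0.912), Loxl1 at 17.7 CPM (0.865) and Fbln5 at 4.66 CPM (0.874). The same library had the highest fibroblast and leukocyte marker levels of its group, and their part was not tested. The peritoneal stroma of mouse 1 stood apart for Eln, at 555 CPM (ratio 0.923). Fbln5 was low in the liver stroma of mouse 4, at 0.441 CPM (0.891). Fbn2 had its single count in liver tumour cells in mouse 2, at 0.0279 CPM (ratio 1, the only ratio that a single count can give).

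The difference between liver and peritoneum differed between stroma and tumour cells, by the interaction test, for Fbln1 (-3.31), Fbln2 (-2.10) and Loxl2 (-1.72).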

How the results depend on the processing

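RasLOW against BMEL WT gave 1 member called, and 0 with RLE scaling, with all 25 libraries in one fit, with a replicate block, within lane 4 and by the study's thresholds (here on unadjusted p), and 0 to 1 without any one library. Over all genes, the calls of 236 higher and 498 lower genes became 1640 with DESeq2, 2440 in the one fit, 295 with the block, 0 within lane 4 and 148 to 2340 without one library. Loxl2 there turned to -0.028 with the block and ran from -0.33 to 0.20 without one library. For RasHIGH against BMEL WT, the 2 members became 4 with DESeq2 and with no filter (Fbn1 and Loxl1 added), 0 within lane 4 and 1 by the study's thresholds, and the calls of 1341 higher and 1448 lower genes became 4347 in the one fit, 316 within lane 4, 1190 by the thresholds and 1517 to 3896 without one library. Between RasHIGH and RasLOW, the 0 members became 1 with DESeq2 and 2 in the one fit, and the 9 genes became 414 with DESeq2, 77 with no filter, 917 in the one fit, 0 with the block, 253 by the thresholds and 0 to 16 without one library. The numbers of cultured libraries are only names, since their deviations did not correlate by number (means -0.13, 0.06 and -0.30), so the block says nothing of pairing there.

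Between the tumour cells of the sites, the 6 members became 3 with the mouse as a block, 0 with the block and without mouse 2, whose tumours were in different lanes, and 0 to 7 without one library. With DESeq2 the number stayed at 6, but Fbln5 was called (adjusted p = 0.00018) and no adjusted p was returned for Eln. The calls of 174 higher and 245 lower genes became 1239 with DESeq2, 102 with the block, 0 with the block and without mouse 2, and 41 to 884 without one library. Fbln1 ran from -0.22 to 0.21 and Loxl2 from -0.0077 to 0.28. Between the stroma of the sites, scaling to fibroblast markers, added after seeing the data, left 6 members called and 14396 genes, with Eln at 0.26, Fbln2 at 1.04 and Loxl2 at 1.69, and the study's thresholds left 2107 genes. By those thresholds, stroma and tumour cells differed in 6437 genes in the liver, where Fbln1, Fbln2 and Loxl2 no longer passed on fold change, and 6377 in the peritoneum. In the test of the site difference, the mouse as a block gave -0.35 for Fbn1, -0.021 for Lox and -0.18 for Loxl1, and leaving out one library gave -1.24 to 0.42 for Fbn1, -0.99 to 1.98 for Fbn2, -0.92 to 0.61 for Lox and -0.99 to 0.40 for Loxl1. The cause of these changes was not tested. The block changed no other member call. Members with 0 or few counts in culture are limited by depth.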
